A study of Homo sapiens with 6 samples.

Results

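The WNT ligands, receptors and antagonists were followed in a pair of human prostate cancer lines, the castration resistant C4-2B and its subclone RC4-2B, which is resistant to the taxane cabazitaxel (CBZ). The set is made of the protein-coding genes whose symbols name a WNT ligand, a Frizzled receptor, an LRP5/6 or ROR co-receptor, a secreted antagonist (SFRP, DKK, WIF1, NOTUM), an R-spondin or its LGR receptor, the membrane ligases RNF43 and ZNRF3, AXIN, APC and NKD proteins, β-catenin (CTNNB1), or a TCF/LEF factor. It holds 62 of the 58735 genes in the deposited table. RNA-seq was run on 3 biological replicates of each cell line. RC4-2B was derived from C4-2B in cycles of 72 h of CBZ and recovery, with the dose raised from 0.1 nM to 20 nM over 4 months, and it is a single subclone, so that what CBZ selected and what that subclone carried cannot be told apart. C4-2B was the parental line without this selection. The labels name RPMI-1640 with 10% fetal bovine serum for every sample, and no drug is named for the cultures that were sequenced.

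SFRP1, which encodes a secreted protein that binds WNT ligands, was the only 1 of the 35 testable members past the threshold of edgeR's test with all 6 libraries, and it rose 7.39-fold in RC4-2B (log2 fold change 2.88, standard error 0.18, n = 3 and 3). With it, the summed level of the secreted antagonists went from 2.07 ± 0.161 to 5.01 ± 0.272 FPKM (SD, n = 3; fragments scaled to gene length and library total). In these bulk samples, more cells with SFRP1 and more SFRP1 RNA per cell cannot be told apart. Both lines expressed the same receptors most strongly, FZD6 and LRP5, and the same ligands, WNT7B and WNT10B. LEF1, WNT8B and FZD5 were lower in all 3 RC4-2B libraries than in any C4-2B library, and by edgeR they did not pass the threshold with all 6 libraries but did when RC4-2B replicate 2, a library that stood apart, was left out. Of the 35 members, 5 were higher and 9 were lower without overlap, beside 17% and 17.1% of all genes. Without RC4-2B replicate 2, 6.5% of all genes were called higher and 6.02% lower. With all libraries, WNT8B was also called lower by DESeq2, beside 2.64% of all genes. WNT8B and LEF1 were called lower by edgeR with no filter on low counts, beside 2.22%. After a correction for transcript GC content neither passed (edgeR adjusted p = 0.0766 and 0.0682). WNT8B stayed short of the threshold in 15 of 19 alternative settings and LEF1 in 14 of 17.

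WNT proteins are secreted lipid-modified ligands that bind a Frizzled receptor together with LRP5 or LRP6. Without ligand, a complex built on AXIN and APC marks β-catenin for degradation. When the receptors are engaged, that complex is held at the membrane, β-catenin accumulates, and it enters the nucleus and acts with TCF/LEF factors on target genes. SFRP, DKK and WIF1 proteins and the lipid-removing enzyme NOTUM act against the ligands or their receptors outside the cell. RNF43 and ZNRF3 remove Frizzled receptors from the surface, and R-spondins acting through LGR receptors oppose them. The pathway takes part in prostate development and is known to be altered in a subset of castration resistant tumors.

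The libraries held 15707134 to 18052517 counts on genes. At this depth, 3 counts correspond to 0.170 to 0.188 CPM (read counts scaled to a common library size), and a gene at 0 may lie anywhere up to that level, for counting error alone. ABCB1, the drug efflux pump gene, was between 0 and 0.0566 CPM in C4-2B and between 671.7 and 909.2 CPM in RC4-2B, and the libraries followed their labels. All 12 prostate luminal markers were above 3 counts in all 6 libraries. Their summed level was 5188.8 to 5357.8 CPM in C4-2B and 4229.9 to 4786 CPM in RC4-2B. Of these 12, edgeR called KLK3 (log2 fold change -4.33) and TMPRSS2 (-1.08) lower in RC4-2B, beside 0.903% of all genes. DESeq2 called 1 higher and 3 lower, beside 3.28% and 2.64% of all genes. Without RC4-2B replicate 2 edgeR also called 1 and 3, beside 6.5% and 6.02%. With a correction for transcript GC content it called 1 and 3 as well, beside 4.36% and 3.25%. Of the 4 basal markers, KRT5 and TP63 were at 0, KRT15 had at most 1 count and KRT14 had 4 to 17 counts. RC4-2B replicate 2 differed from the other RC4-2B libraries with an SD of 0.716 and 0.646 in log2 CPM over genes, whereas those libraries differed from each other with 0.379 and the C4-2B libraries with 0.310 to 0.345. For this reason results are given with and without it.

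Of the 62 members, 35 had enough counts to be tested and 27 had not. No read was counted in any library for 14 of them, which were WNT1, WNT6, WNT8A, WNT11, WNT16, FZD10, SFRP4, SFRP5, DKK2, DKK4, WIF1, RSPO1, RSPO2 and RSPO3. Another 10 stayed at or under 3 counts in every library: WNT2, WNT3A, WNT5B, WNT7A, ROR2, SFRP2, DKK1, DKK3, RSPO4 and LGR5. The remaining members without a test, WNT9B, LGR6 and TCF7L1, reached at most 7 counts in a library. No member was above 3 counts in all libraries of one line and at or under 3 in all libraries of the other.

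In edgeR's quasi-likelihood test, with p adjusted by Benjamini-Hochberg over 15054 genes, 1 member was higher and 0 were lower in RC4-2B at an adjusted p under 0.05, where 1.08% of all genes tested were higher and 0.903% were lower. At an unadjusted p under 0.05 by edgeR, 5 members were higher (SFRP1, WNT3, WNT4, LRP6 and APC) and 6 were lower (LEF1, WNT8B, FZD5, FZD8, AXIN1 and TCF7), beside 12% and 9.42% of all genes. DESeq2 called 1 member higher and 1 lower (WNT8B), where it called 3.28% and 2.64% of all genes. The CPM of the 2 lines did not overlap for 5 members higher and 9 lower, against 17% and 17.1% of all genes. Among the tested members 16 had a log2 fold change above 0 and 19 below, with a median of -0.08, beside a median of 0.01 over all genes. This median was 0.06 after a correction of each library for transcript GC content and 0.06 without RC4-2B replicate 2.

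**Figure D1:**
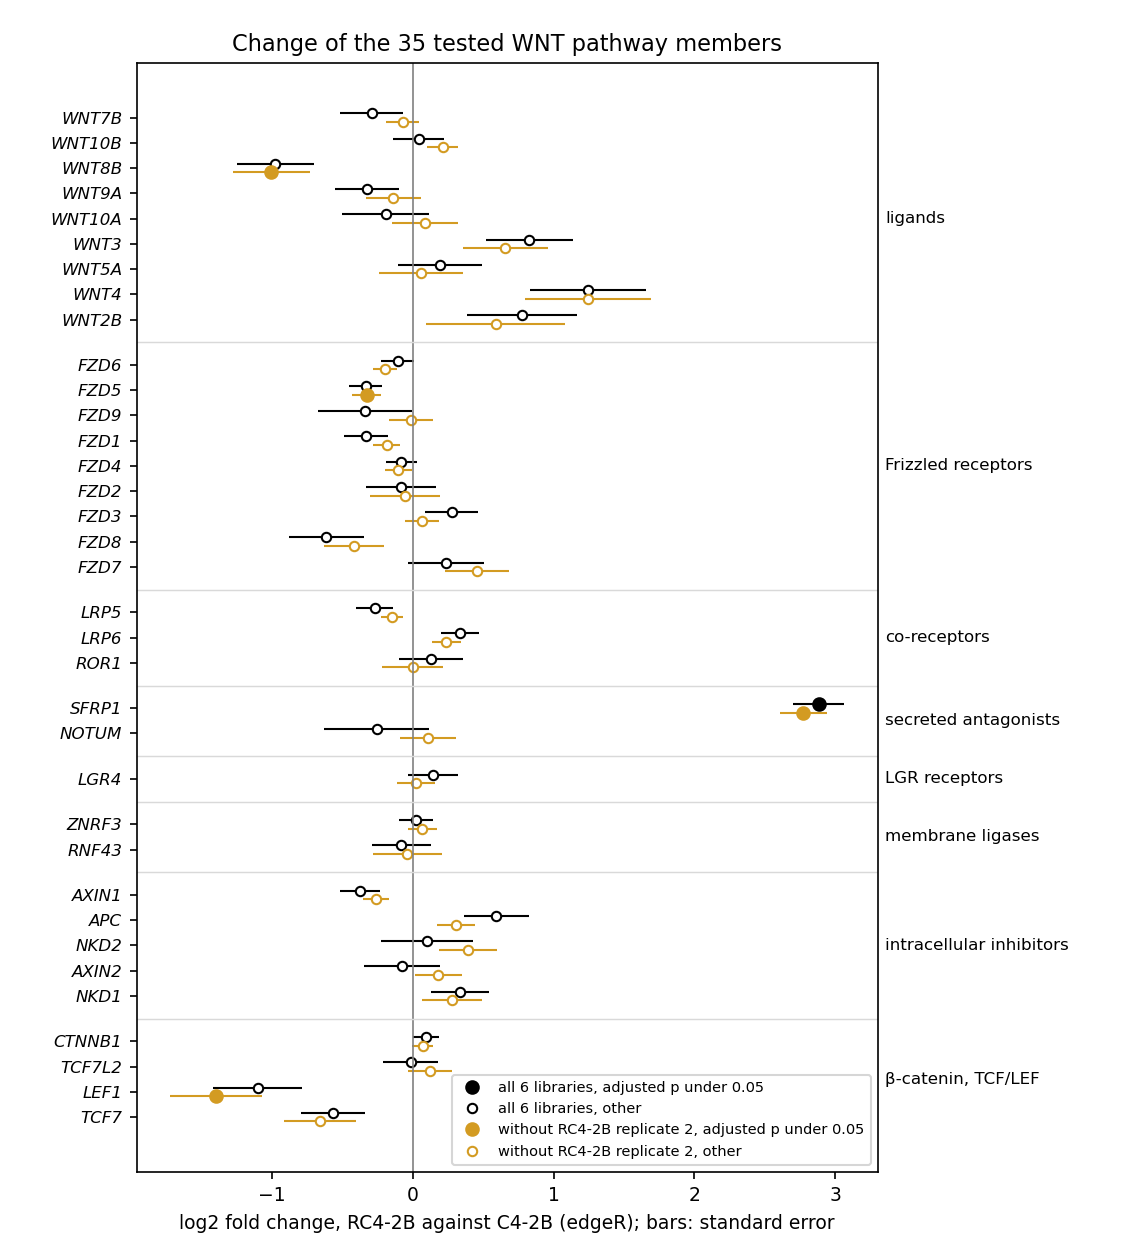
Log2 fold change of each of the 35 tested members in RC4-2B against C4-2B, by role, from edgeR with all 6 libraries (black) and without RC4-2B replicate 2 (yellow). Bars are standard errors and filled points have an adjusted p under 0.05: SFRP1 in both fits, at 2.88 and 2.77, and LEF1, WNT8B and FZD5 in the second alone, at -1.40, -1.0 and -0.33.

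Of the 19 WNT ligands, 9 were tested and none passed the threshold by edgeR with all 6 libraries (2 higher and 1 lower at an unadjusted p under 0.05, 0 higher and 1 lower by DESeq2 after adjustment). The shares of all genes were 12% and 9.42% at an unadjusted p under 0.05 by edgeR, and 3.28% and 2.64% by DESeq2. WNT7B, a ligand of β-catenin signaling in epithelia, was measured at 9.42, 8.64 and 9.43 FPKM in the C4-2B libraries and at 7.28, 5.26 and 10.2 FPKM in the RC4-2B libraries. The RC4-2B values of WNT7B lay on both sides of the C4-2B values (log2 fold change -0.29, standard error 0.22). WNT10B, another canonical ligand, was at 7.74, 7.35 and 7.25 FPKM in C4-2B and at 8.91, 6.01 and 8.38 FPKM in RC4-2B. The lines overlapped here as well, and the log2 fold change was 0.04 (standard error 0.18). These ligands made up 33.6% to 44.9% (WNT7B) and 32.2% to 41.5% (WNT10B) of the summed ligand FPKM of a library, and their order relative to each other was not the same in all libraries.

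WNT8B, a ligand best known from the developing forebrain, followed at 1.75 FPKM over the 6 libraries. Its counts were 81, 91 and 111 in C4-2B, against 58, 50 and 31 in RC4-2B, which are 4.83, 5.15 and 6.32 CPM against 3.63, 2.85 and 1.82 CPM. Every RC4-2B library was below every C4-2B library, by a log2 fold change of -0.98 (standard error 0.27, edgeR adjusted p = 0.109). An exact permutation test of 3 against 3 libraries cannot give a two-sided p below 0.1. Any gene without overlap between the lines reaches that limit, as WNT8B did, so the test adds nothing to the lack of overlap. Of all genes tested, 17% were higher and 17.1% lower without overlap. Without RC4-2B replicate 2 the log2 fold change was -1.0 (edgeR adjusted p = 0.0260), in a fit in which 6.02% of all genes tested were lower. DESeq2 with all libraries gave -0.99 (adjusted p = 0.0404). The direction was negative in all 19 alternatives, with a range of -1.21 to -0.60.

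The gene lies on chromosome 10 of GRCh38 at 100463041 to 100483744 on the plus strand, in the coordinates of the deposited table. The 250 bases before its RefSeq start are shown because TCF/LEF factors are known to bind the letters CTTTGT or CTTTGA. The sequence is from RefSeq, GRCh38.p14, plus strand, at chr10:100462759-100463008, and the capitals mark the single CTTTGT match, 175 to 170 bases before the start.
WNT8B upstream: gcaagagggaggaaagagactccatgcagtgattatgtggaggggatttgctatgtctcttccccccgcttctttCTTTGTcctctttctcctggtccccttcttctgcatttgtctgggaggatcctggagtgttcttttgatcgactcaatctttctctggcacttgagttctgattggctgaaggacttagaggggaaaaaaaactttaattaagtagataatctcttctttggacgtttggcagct
Counting both strands, CTTTGT was present in 8 of 53 such windows of 43 member genes (15.1%), and in 13.7% of 35116 windows of all genes. The other motif, CTTTGA, differs from it in the last letter alone, so the 2 cannot lie on the same bases of a strand, and it was present in 1 of the 53 windows (1.89%, DKK1), beside 11.2% of all windows. The 7 genes with CTTTGT were DKK1, FZD1, RNF43, ROR2, TCF7, TCF7L2 and WNT8B. Such a match is a description of the letters and not of binding.

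The ligands of lower level included those with the highest fold changes of this group. WNT4, a ligand of both β-catenin dependent and independent signaling, had 16, 9 and 11 counts in C4-2B, against 16, 29 and 39 in RC4-2B. Its CPM did not overlap between the lines, 0.510 to 0.955 against 1.00 to 2.29, and the log2 fold change was 1.24 (standard error 0.41, edgeR adjusted p = 0.154). With the GC correction the log2 fold change of WNT4 was 1.48 (edgeR adjusted p = 0.0611). WNT3, a canonical ligand, had 32, 28 and 54 counts against 63, 83 and 51, and these overlapped (log2 fold change 0.83, standard error 0.31, edgeR adjusted p = 0.186). WNT2B, also canonical, stayed between 6 and 18 counts in all libraries. WNT5A, the main ligand of β-catenin independent signaling, overlapped between the lines with 39 to 64 counts in C4-2B and 40 to 71 in RC4-2B. WNT9A and WNT10A were measured at 1.17 ± 0.0503 and 0.850 ± 0.0635 FPKM in C4-2B and at 0.947 ± 0.204 and 0.754 ± 0.272 FPKM in RC4-2B, with their lowest value in RC4-2B replicate 2.

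**Figure D2:**
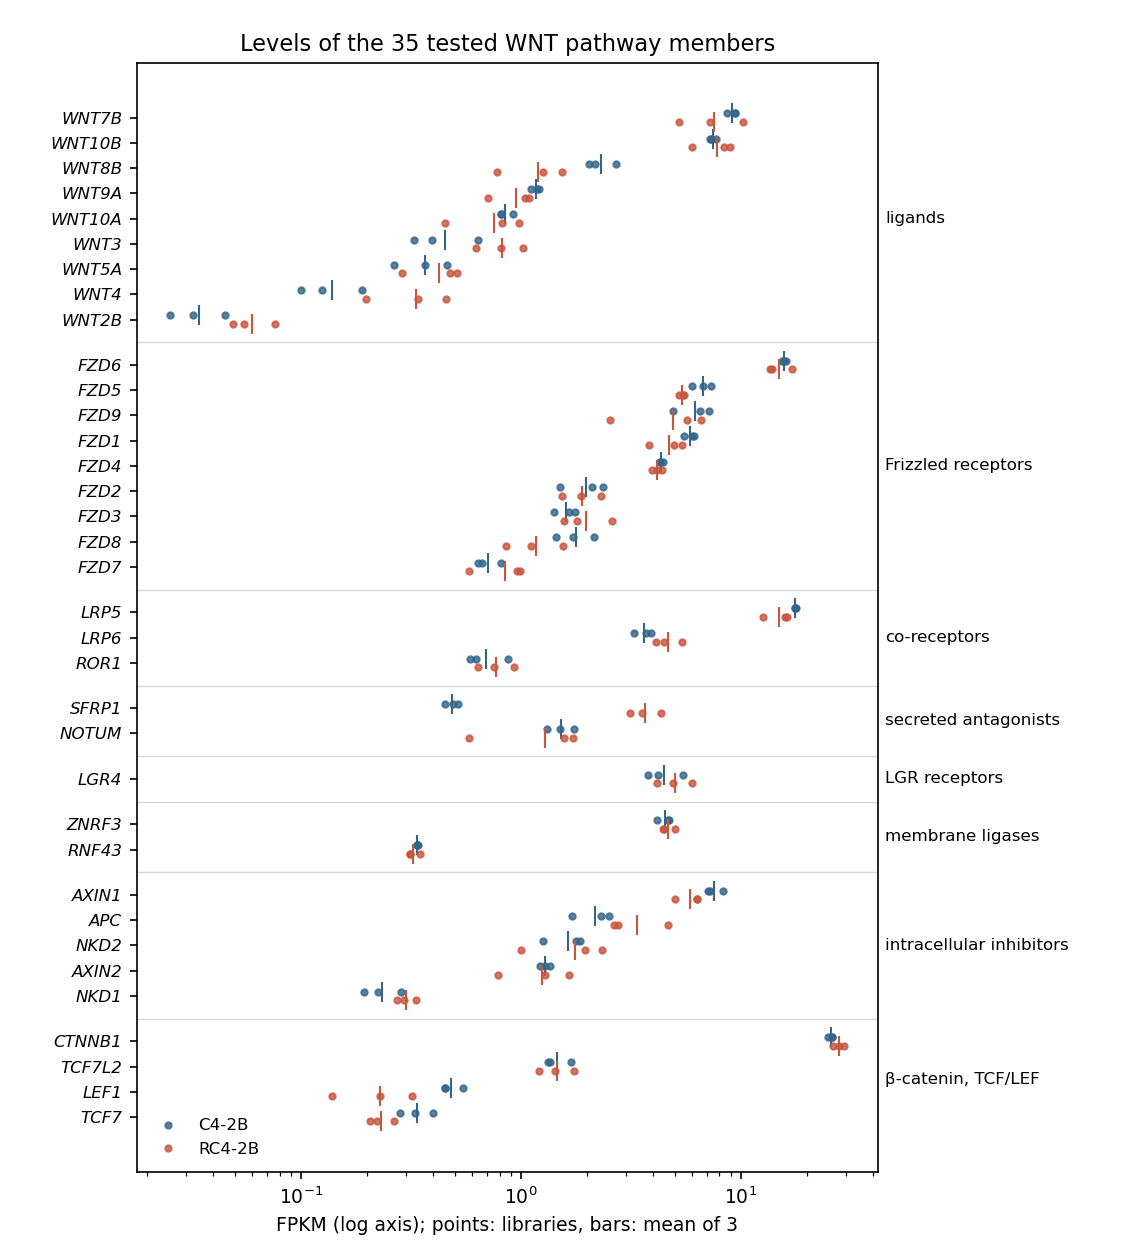
FPKM on a log axis of the 35 tested members by role, with points for the 3 libraries of C4-2B (blue) and RC4-2B (red) and vertical bars for the mean. CTNNB1 at 26.8, LRP5 at 16.3 and FZD6 at 15.3 FPKM over the 6 libraries had the highest levels, and the lines stand clearly apart at SFRP1.

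The Frizzled receptors, the membrane proteins that bind WNT ligands, were tested for 9 of 10 genes, of which 7 had a log2 fold change below 0 and none passed the threshold by edgeR or DESeq2 with all libraries (0 higher and 2 lower at an unadjusted p under 0.05 by each). Over all genes, 50.7% had a log2 fold change above 0. At an unadjusted p under 0.05 by edgeR, 12% of all genes were higher and 9.42% were lower. By DESeq2 these were 1671 and 1678 of the 29108 genes with a p, which include genes of low count. With the GC correction FZD2 (0.05) and FZD9 (0.20) were above 0 as well. The median of the tested Frizzled genes was -0.17 with that correction and -0.11 without it. The summed Frizzled level was 42.4 to 46.2 FPKM in C4-2B and 39.3 to 40.9 FPKM in RC4-2B, which did not overlap. FZD6, known mostly from planar cell polarity, had the highest level, with 15.4, 16.0 and 15.7 FPKM in C4-2B and 13.5, 17.1 and 13.9 FPKM in RC4-2B. RC4-2B replicate 2 was above all C4-2B libraries at this gene and the other RC4-2B libraries were below them. Its log2 fold change was -0.11 (standard error 0.12) with all libraries, -0.20 (standard error 0.08, edgeR adjusted p = 0.142) without that replicate and -0.28 (edgeR adjusted p = 0.0360) when the GC correction was added, an alternative chosen after seeing the data.

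FZD5, a receptor for canonical ligands, had 847, 799 and 960 counts in C4-2B, against 630, 692 and 689 in RC4-2B. The C4-2B libraries were at 50.5, 45.2 and 54.7 CPM and the RC4-2B libraries at 39.4, 39.5 and 40.5 CPM, all lower. The log2 fold change was -0.33 (standard error 0.12, edgeR adjusted p = 0.168) with all libraries, and -0.33 (standard error 0.10, edgeR adjusted p = 0.0466) without RC4-2B replicate 2. Here replicate 2 lay between the other RC4-2B libraries, so the value did not move and the adjusted p did. FZD5 lies on chromosome 2 at 207762586 to 207769563 on the minus strand. The 250 bases before its RefSeq start (GRCh38.p14, minus strand, chr2:207769907-207770156) are shown for comparison with WNT8B, the other ligand or receptor gene of the fit without replicate 2, and they hold neither motif.
FZD5 upstream: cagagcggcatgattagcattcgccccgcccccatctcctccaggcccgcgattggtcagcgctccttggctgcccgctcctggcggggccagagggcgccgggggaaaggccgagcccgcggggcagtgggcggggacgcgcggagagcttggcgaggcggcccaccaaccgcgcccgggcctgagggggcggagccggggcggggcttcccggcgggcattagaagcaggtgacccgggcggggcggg
The 2 windows differ in base composition, with 76.8% G and C before FZD5 and 45.2% before WNT8B.

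Among the other Frizzled genes none passed the threshold in either fit. FZD9 followed FZD5 in level, and its 7.17, 4.92 and 6.50 FPKM in C4-2B overlapped with 6.58, 2.53 and 5.72 FPKM in RC4-2B. Its log2 fold change was -0.34 (standard error 0.33) with all libraries and -0.01 without RC4-2B replicate 2. FZD1 had 5.52 to 6.12 FPKM in C4-2B and 3.84 to 5.38 FPKM in RC4-2B, which did not overlap (log2 fold change -0.33, standard error 0.16, edgeR adjusted p = 0.255). FZD8 had the lowest log2 fold change of the receptors, -0.61 (standard error 0.27, edgeR adjusted p = 0.231), with 6.511 to 9.665 CPM in C4-2B and 3.706 to 7.004 CPM in RC4-2B, which overlapped. The log2 fold change of FZD8 was -0.17 with the GC correction and -0.42 without RC4-2B replicate 2. FZD4, the receptor for norrin, did not overlap, with 34.95 to 36.63 CPM and 32.1 to 34.6 CPM, a log2 fold change of -0.08 (standard error 0.11). FZD2, FZD3 and FZD7 overlapped between the lines, with log2 fold changes of -0.09, 0.28 and 0.24.

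LRP5 and LRP6, the co-receptors of β-catenin signaling, had opposite signs, and neither passed the threshold. LRP5 was at 17.8, 17.7 and 17.6 FPKM in C4-2B and at 16.2, 12.7 and 15.9 FPKM in RC4-2B. All RC4-2B libraries were lower (log2 fold change -0.27, standard error 0.13, edgeR adjusted p = 0.269), and with the GC correction the log2 fold change was 0.14. LRP6 was at 3.26, 3.90 and 3.72 FPKM in C4-2B and at 4.46, 5.39 and 4.12 FPKM in RC4-2B. All RC4-2B libraries were higher here (log2 fold change 0.33, standard error 0.13, edgeR adjusted p = 0.205), and the sign was positive in all 19 alternatives, from 0.17 to 0.41. ROR1, a tyrosine kinase receptor for WNT5A, had 0.695 ± 0.154 FPKM in C4-2B and 0.774 ± 0.145 FPKM in RC4-2B, and its relative ROR2 had 1 or 2 counts in every library.

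Among the 10 secreted antagonists, SFRP1 and NOTUM alone had enough counts to be tested. SFRP1 had 44, 49 and 42 counts in C4-2B, against 268, 386 and 320 in RC4-2B, at 2.63, 2.77 and 2.39 CPM against 16.76, 22.01 and 18.80 CPM. The lowest RC4-2B library was far above the highest C4-2B library, and the spread within each line was small beside the difference. The log2 fold change of 2.88 (standard error 0.18, edgeR adjusted p = 0.000299) ranked 14 from the highest and 7 by p among 15054 genes. It was 2.77 without RC4-2B replicate 2 and 2.87 with the GC correction, and it kept an edgeR, DESeq2 or limma adjusted p of at most 0.0235 in all 19 alternatives, where the log2 fold change ranged from 1.65 on the log2(FPKM + 1) scale to 2.97. In the exact permutation test SFRP1 reached 0.1, the smallest two-sided p of 3 against 3, as any gene without overlap does. The gene lies on chromosome 8 at 41261958 to 41309497 on the minus strand.

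**Figure D3:**
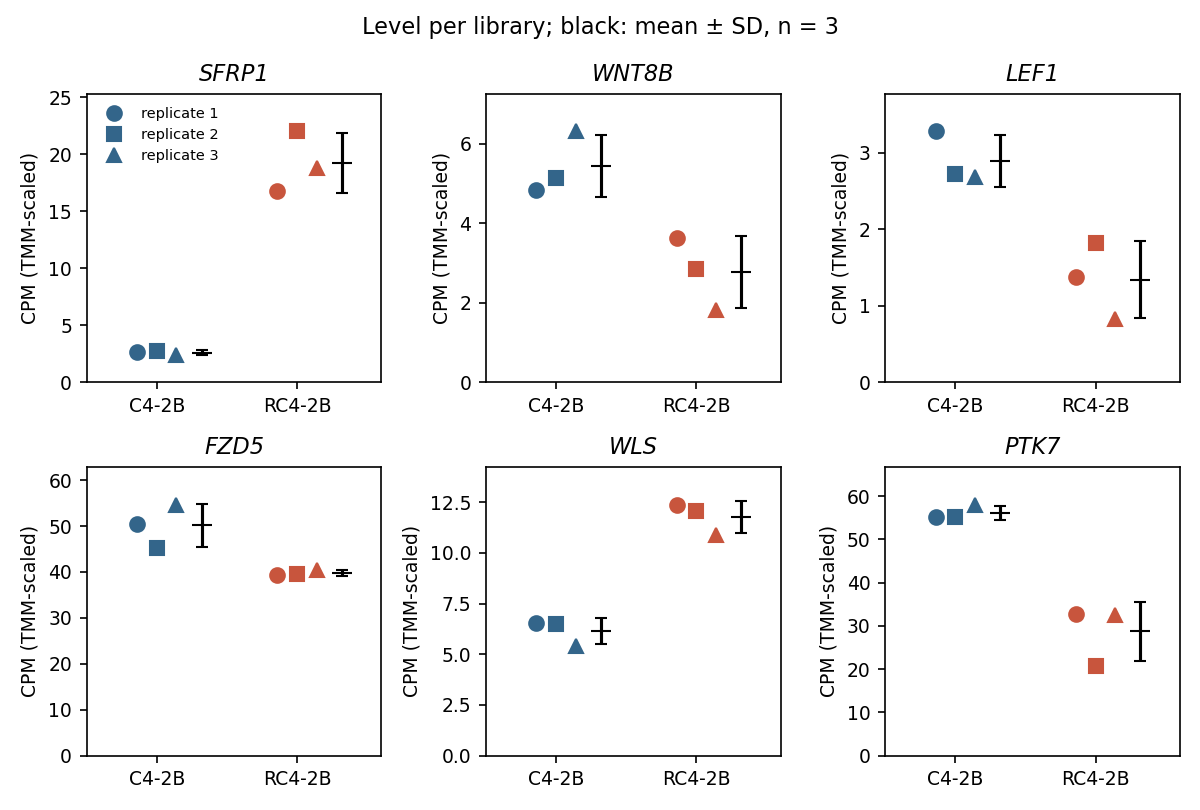
TMM-scaled CPM of SFRP1, WNT8B, LEF1, FZD5, WLS and PTK7 in each library, with a symbol for each replicate and the mean ± SD (n = 3) in black. These genes were picked because they passed the threshold of edgeR with all libraries or without RC4-2B replicate 2. The lines do not overlap in any panel, beside 17% of all genes higher and 17.1% lower without overlap. SFRP1 goes from 2.60 ± 0.193 to 19.2 ± 2.64 CPM.

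NOTUM, a secreted enzyme that removes the lipid from WNT ligands, had 99, 79 and 89 counts in C4-2B, against 85, 33 and 98 in RC4-2B. RC4-2B replicates 1 and 3 were within the CPM range of C4-2B and replicate 2 was below it, and the log2 fold change was -0.26 (standard error 0.37) with this library and 0.11 without it. In C4-2B, NOTUM accounted for 68.3% to 78.0% of the summed antagonist FPKM and SFRP1 for 21.99% to 26.88%. In RC4-2B the order was reversed, with 65.5% to 88.1% for SFRP1 and 11.9% to 32.8% for NOTUM. Set against the ligands, the antagonists made 8.96, 9.23 and 10.0 FPKM per 100 FPKM of ligand in C4-2B, against 22.4, 23.4 and 31.3 in RC4-2B, the last in replicate 2, whose ligand sum was the lowest at 15.7 FPKM. These are ratios of RNA levels, and protein was not measured here. SFRP1 is also made by fibroblasts. Of the 10 fibroblast markers, COL1A1, COL3A1, PDGFRB and FBN1 were above 3 counts in all libraries, and the summed CPM of the list was 25.6 to 30.9 in C4-2B and 33.01 to 48.03 in RC4-2B. All 4 had a log2 fold change above 0 (median 0.91), with 0 higher by edgeR with all libraries (2 at an unadjusted p under 0.05), 2 by DESeq2, 3 with GC correction and 3 without RC4-2B replicate 2. The shares of all genes higher were 1.08% by edgeR with all libraries and 12% at an unadjusted p under 0.05. They were 3.28% by DESeq2, 4.36% with GC correction and 6.5% without RC4-2B replicate 2. COL1A2, DCN, LUM, FAP and THY1 were at 0 in all libraries of both lines, and PDGFRA had at most 1 count. The part of such cells in the SFRP1 result was not tested.

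**Figure D4:**
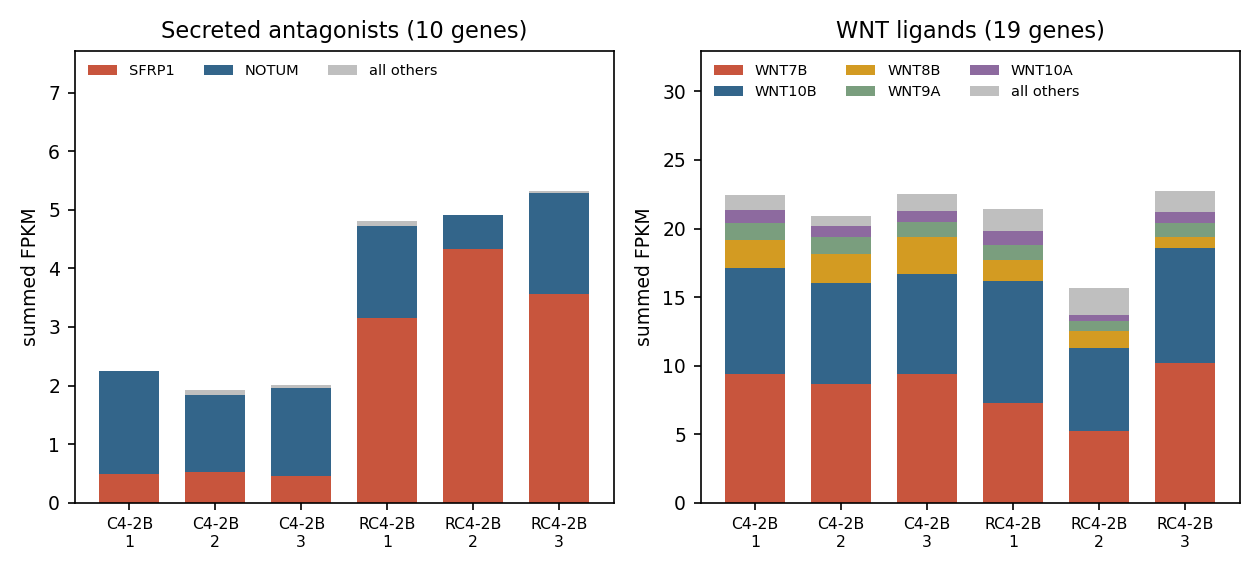
Summed FPKM of the 10 secreted antagonists (left) and the 19 WNT ligands (right) in each library, stacked by gene. The antagonist sum is 1.93 to 2.24 in C4-2B and 4.81 to 5.32 in RC4-2B, mostly through SFRP1, while the ligand sum is 20.9 to 22.5 and 15.7 to 22.7.

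Of the R-spondins and their receptors, only LGR4 was tested. LGR4, a receptor through which R-spondins act, had 3.77, 4.19 and 5.46 FPKM in C4-2B and 4.18, 5.97 and 4.93 FPKM in RC4-2B, and the lines overlapped (log2 fold change 0.14, standard error 0.18). LGR6 had 0 to 6 counts, and no R-spondin exceeded 3. Both membrane ligases overlapped between the lines. ZNRF3 had 4.14 to 4.71 FPKM in C4-2B and 4.44 to 5.05 FPKM in RC4-2B (log2 fold change 0.02, standard error 0.12), and RNF43 had 48, 50 and 49 counts against 42, 44 and 49 (log2 fold change -0.08, standard error 0.21).

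The intracellular inhibitors were all tested, and none passed the threshold by edgeR or DESeq2 (1 higher and 1 lower at an unadjusted p under 0.05 by each). At that unadjusted p, edgeR had 12% of all genes higher and 9.42% lower. DESeq2 had 1671 higher and 1678 lower of the 29108 genes with a p, which include genes of low count. AXIN1, the scaffold of the complex that degrades β-catenin, was at 8.29, 7.13 and 7.26 FPKM in C4-2B and at 6.35, 5.04 and 6.31 FPKM in RC4-2B. All RC4-2B libraries were lower (log2 fold change -0.38, standard error 0.14, edgeR adjusted p = 0.187), but with the GC correction the log2 fold change was 0.07. APC, the tumor suppressor of the same complex, was at 1.71, 2.51 and 2.32 FPKM in C4-2B and at 2.66, 4.66 and 2.75 FPKM in RC4-2B. All RC4-2B libraries were higher, replicate 2 by far the most, and the log2 fold change was 0.59 (standard error 0.23, edgeR adjusted p = 0.1995) with it and 0.31 (standard error 0.13) without it. AXIN2, an inhibitor that is itself a widely used target gene of the pathway, had 7.16, 7.98 and 7.46 CPM in C4-2B and 7.504, 4.39 and 9.576 CPM in RC4-2B, so that the RC4-2B libraries lay on both sides. NKD1 and NKD2, which bind Dishevelled, overlapped between the lines, with log2 fold changes of 0.34 and 0.10. For NKD2 the value was 0.62 with the GC correction (edgeR adjusted p = 0.0750) and 0.39 without RC4-2B replicate 2 (edgeR adjusted p = 0.231).

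CTNNB1, which encodes β-catenin, had the highest level of all members, with 24.9, 26.1 and 26.0 FPKM in C4-2B and 26.2, 29.5 and 28.0 FPKM in RC4-2B. The difference was small (log2 fold change 0.09, standard error 0.09, edgeR adjusted p = 0.540), and at the RNA level it does not speak of the protein, which is regulated by degradation. TCF7L2, the TCF factor with the highest level, had 1.46 ± 0.197 FPKM in C4-2B and 1.46 ± 0.271 FPKM in RC4-2B. LEF1, a factor through which β-catenin acts and a known target of the pathway, had 55, 48 and 47 counts in C4-2B, against 22, 32 and 14 in RC4-2B, at 3.28, 2.72 and 2.68 CPM against 1.38, 1.82 and 0.822 CPM. The lines did not overlap, and LEF1 had the lowest log2 fold change of all members, -1.10 (standard error 0.32, edgeR adjusted p = 0.115). Without RC4-2B replicate 2, the library with the highest LEF1 of its line, the log2 fold change was -1.40 (standard error 0.33, edgeR adjusted p = 0.0114). With no filter on low counts the adjusted p was 0.0438 by edgeR, and by DESeq2 it was 0.07658. LEF1 lies on chromosome 4 at 108047545 to 108168956 on the minus strand, and LEF1-AS1 on the other strand had at most 1 count in a library. TCF7 had 53, 66 and 78 counts against 40, 50 and 39 and did not overlap in CPM (log2 fold change -0.57, standard error 0.23, edgeR adjusted p = 0.208).

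RC4-2B replicate 2 had the lowest CPM of the 6 libraries at 15 of the 35 tested members and the highest at 12. Its deviation from the mean of the other RC4-2B libraries followed the GC content of the longest transcript, with a Spearman correlation of -0.757 over the 35 members and -0.658 over 14987 genes, while the difference between replicates 1 and 3 had 0.262 over the members. These points share their libraries, and the correlations are given as a description. Among the 18 members of higher GC content the median deviation was -0.60 on the log2 scale and among the other 17 it was 0.27. NOTUM, FZD9 and NKD2 had the lowest values, -1.51, -1.32 and -1.13, and APC and LEF1 had the highest, 0.73 and 0.72. The GC correction took this trend out of each library, and with it SFRP1 was the only member past the threshold of edgeR (4.36% of all genes were higher and 3.25% lower). Without replicate 2 the count was 1 higher and 3 lower, beside 6.5% and 6.02% of all genes, and with the correction added to that fit it was 1 higher and 4 lower (FZD6 in addition), beside 6.74% and 6.59%. With no filter on low counts it was 1 higher and 2 lower (LEF1 and WNT8B), beside 2.07% and 2.22%.

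**Figure D5:**
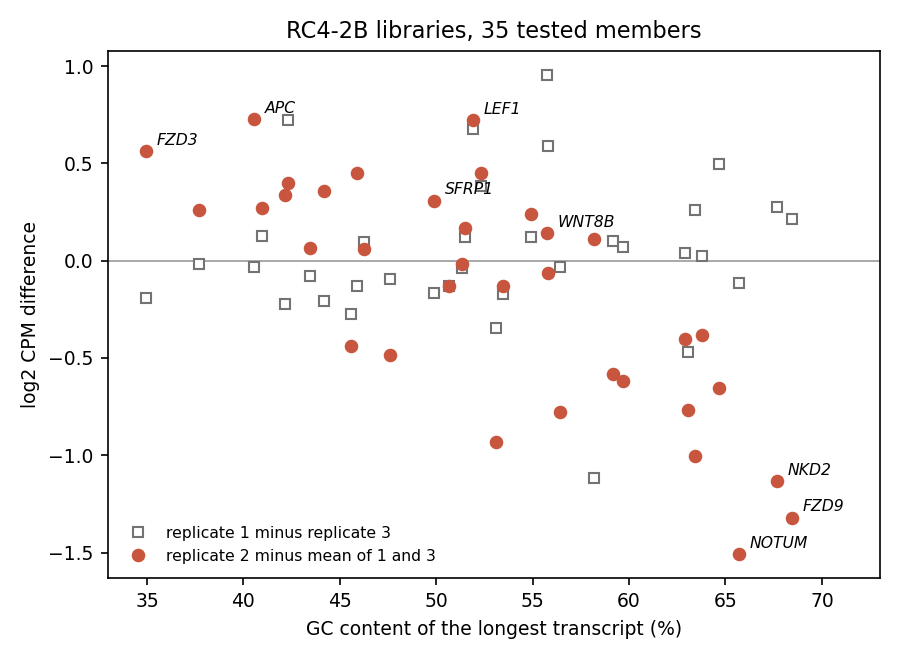
Difference in log2 CPM between RC4-2B replicate 2 and the mean of replicates 1 and 3 (red) and between replicates 1 and 3 (open squares) against the GC content of the longest transcript, for the 35 tested members. The red points fall with GC content from 0.56 at FZD3 to -1.51 at NOTUM, and SFRP1 is at 0.31.

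Outside the 62 members, 126 genes of the pathway were described in 4 lists, and 97 of them were tested. By edgeR 1 was higher, WLS, and 1 was lower, PTK7. These counts were near the shares over all genes tested, 1.08% higher and 0.903% lower. WLS, the carrier that brings WNT ligands to the cell surface, was at 6.56, 6.51 and 5.41 CPM in C4-2B and at 12.4, 12.1 and 10.9 CPM in RC4-2B. All RC4-2B libraries were higher, and WLS rose by a log2 fold change of 0.93 (standard error 0.16, edgeR adjusted p = 0.0290). PTK7, a pseudokinase receptor of planar cell polarity, was at 55.1, 55.3 and 58.1 CPM in C4-2B and at 32.8, 20.8 and 32.6 CPM in RC4-2B. It fell by a log2 fold change of -0.97 (standard error 0.18, edgeR adjusted p = 0.0360), and the value was -0.78 without RC4-2B replicate 2. Both kept their direction in all 19 alternatives and lost the threshold in 8, which include each fit without a C4-2B library (edgeR adjusted p = 0.158 to 0.163 for WLS and 0.160 to 0.186 for PTK7) and the fit without RC4-2B replicate 3 (0.0900 and 0.0938).

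By list, 16 of 22 secretion and extracellular genes were tested, with 1 higher (WLS) and 0 lower, and a median log2 fold change of 0.00. At an unadjusted p under 0.05 by edgeR, 3 of them were higher and 4 lower, and by DESeq2 after adjustment 1 and 1. Of the 39 cytoplasmic and nuclear genes 36 were tested and 0 passed by edgeR (2 higher and 5 lower at an unadjusted p under 0.05, 0 and 2 by DESeq2 after adjustment), with a median of -0.03. Of 36 planar polarity and noncanonical genes 29 were tested, with 0 higher and 1 lower (PTK7), and a median of 0.12. There 6 were higher and 2 lower at an unadjusted p under 0.05 by edgeR, and 1 and 2 by DESeq2 after adjustment. The log2 fold change was above 0 for 21 of the 29 and below for 8, where 50.7% of all genes were above. Among 29 reported target genes 16 were tested and 0 passed by edgeR (1 higher and 3 lower at an unadjusted p under 0.05, 0 and 1 by DESeq2 after adjustment), with a median of -0.04. Beside these lists, 12% of all genes were higher and 9.42% lower at an unadjusted p under 0.05 by edgeR. DESeq2 called 3.28% of all genes higher and 2.64% lower after adjustment. Among the 16 tested targets, 8 had a log2 fold change above 0 and 8 below. The CPM of the lines did not overlap for 2 targets higher and 7 lower, beside 17% and 17.1% of all genes. MYC and CCND1, which drive proliferation, were the best known of these targets. MYC was at 272.0 to 307.7 CPM in C4-2B and 181.8 to 255.1 CPM in RC4-2B (log2 fold change -0.33, standard error 0.14, edgeR adjusted p = 0.234), and CCND1 at 346.1 to 361.5 against 269.6 to 334.5 CPM (log2 fold change -0.19, standard error 0.11, edgeR adjusted p = 0.318). MYC and CCND1 were chosen for mention after their values were seen, as were KREMEN2, GPC4, BAMBI and the other genes that passed without RC4-2B replicate 2.

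Without RC4-2B replicate 2, 3 of 98 other pathway genes were higher and 11 were lower by edgeR, in a fit that called 6.5% of all genes higher and 6.02% lower. KREMEN2, a receptor for DKK proteins, was at 28.6, 24.2 and 26.5 CPM in C4-2B and at 12.1, 1.43 and 10.9 CPM in RC4-2B. Its log2 fold change was -1.20 (standard error 0.13, edgeR adjusted p = 3.15e-05) without that replicate and -1.70 (standard error 0.56, edgeR adjusted p = 0.153) with it, and with all libraries and GC correction it was -1.27 (edgeR adjusted p = 0.0194). GPC4, a proteoglycan that binds WNT ligands, was at 8.29, 9.68 and 9.68 CPM against 4.38, 5.76 and 5.17 CPM, all lower in RC4-2B, and it was called lower without that replicate (-0.95, edgeR adjusted p = 0.00335) and by DESeq2 (-0.86, adjusted p = 0.00902). BAMBI, a TGF-β pseudoreceptor that is a reported WNT target, was called lower by the same fits, with -0.64 (edgeR adjusted p = 0.00602) and -0.59 (DESeq2 adjusted p = 0.0296). The remaining lower genes were DVL1, APC2, CTNNBIP1, CTBP1, PTK7, SCRIB, DCHS1 and TRIB2, and the higher ones were WLS, INTU and TNFRSF19.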

How the data were processed

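RNA-seq was analysed for 3 C4-2B and 3 RC4-2B samples, labelled as biological replicates. Reads were mapped to GRCh38 with STAR, per the submitters' processing notes, and the authors deposited raw counts per gene (whole numbers, not normalized) and FPKM (counts scaled to gene length and library total). How reads were assigned to genes, with or without strand and between paralogs, and which annotation release was used are not given in the sources used here. Overlapping genes such as FZD4 with PRSS23, CTNNB1 with ULK4, TCF7 with SKP1, LRP6 with BCL2L14, WNT2B with ST7L and RNF43 with SUPT4H1 carry that uncertainty. The methods name both charcoal-stripped and fetal bovine serum for these cultures.

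Counts were tested in R 4.3.3 with edgeR 4.0.16: TMM scaling, filterByExpr (minimum count 10, 15054 genes), glmQLFit and glmQLFTest, Benjamini-Hochberg adjustment over all tested genes, threshold 0.05. Standard errors were obtained from the fold change and the F statistic (|log2 fold change| over the root of F). Levels of different genes are compared as FPKM, and CPM is TMM-scaled. Summed levels and shares were not tested. The alternatives were DESeq2 1.42.0 (the tool of the study), RLE or upper-quartile scaling, no filter, a mean of at least 10 counts, a replicate block, GC correction (lowess with span 0.2 on GENCODE release 44 transcripts as an offset, GC known for 99.5% of genes, which also removes any mean GC trend between the lines), each library left out, limma 3.58.1 with trend on log2(FPKM + 1) or log2(FPKM + 0.1), and protein-coding genes alone. One more, without RC4-2B replicate 2 and with GC correction, was chosen after seeing the data. The edgeR step was tested on simulated data. Upstream windows are the 250 bases before the start in RefSeq (GRCh38.p14), found for 43 of the 62 members.

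Replicates of a line differed by more than sampling noise (chi-square per gene 3.38 to 65.4). Members and lists were chosen with earlier results of these data known. Named genes are members past the threshold with all libraries or without RC4-2B replicate 2, the 2 members of highest FPKM in each role, other pathway genes past the threshold, and ABCB1. Further members are described by their values.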

Additional observations from a re-analysis of the deposited data

How the results depend on the processing

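At this depth, members at or under 3 counts could not be compared, and 3 libraries a line leave changes as small as that of FZD5 near the threshold. SFRP1 was the only member past the threshold as higher in each of the 19 alternatives. Of 376 values for 20 named genes, 326 kept direction and side of the threshold. The cause of the changes listed here was not tested, apart from settings that remove samples or genes. Members lower were 0 with all libraries, 1 with DESeq2, 2 with no filter on low counts (WNT8B, and LEF1 at -1.11), 0 to 3 over the fits that left out 1 library, and 4 without RC4-2B replicate 2 with GC correction. The 3 were found without RC4-2B replicate 2, and they were LEF1, WNT8B and FZD5.

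Genes higher and lower among all tested, 162 and 136 in the reported fit, were 500 and 402 with DESeq2, 657 and 490 with GC correction, 39 and 47 with limma on log2(FPKM + 0.1), 46 and 58 with limma on log2(FPKM + 1), 13 and 23 without its filter, 604 and 646 with no filter on low counts, and 1037 and 1013 without RC4-2B replicate 2 with GC correction. Leaving out 1 library gave 13 to 1000 higher and 31 to 925 lower, the lowest without C4-2B replicate 1 and the highest without RC4-2B replicate 2. Other pathway genes, 1 higher and 1 lower, were 2 and 6 with DESeq2, 1 and 5 with GC correction, 0 and 0 with each limma fit, 4 and 9 with no filter, 7 and 9 without RC4-2B replicate 2 with GC correction, and 0 to 3 higher and 0 to 11 lower with 1 library left out.

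The replicate numbers gave no clear sign of pairing (correlations of the deviations of same-numbered libraries 0.142, 0.0840 and -0.0113). C4-2B libraries 1 and 2 correlated best with their own number while library 3 did not. The deviations were taken from the mean of 3 libraries a line, so these correlations cannot exclude a pairing. With the replicate block, 55 genes were higher and 74 lower, 0 other pathway genes passed in either direction (WLS at an adjusted p of 0.0636, PTK7 at 0.0512), and SFRP1 stayed at 2.88. With replicate block and GC correction the counts were 642 and 564 over all genes and 5 and 5 over other pathway genes.

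Among the 20 named genes, none of the log2 fold changes that turned sign was past the threshold in either fit. With GC correction alone they were 0.0821 for WNT7B, 0.137 for LRP5, 0.160 for NOTUM, -0.00278 for LGR4, 0.0711 for AXIN1 and -0.0306 for CTNNB1. With replicate block and GC correction they were 0.0640 for WNT7B, 0.124 for LRP5, 0.134 for NOTUM, 0.0552 for AXIN1 and -0.0323 for CTNNB1. Without RC4-2B replicate 2 with GC correction they were 0.0684 for WNT7B, 0.277 for NOTUM, -0.0302 for LGR4 and 0.0700 for TCF7L2. TCF7L2 was also 0.000456 with limma on log2(FPKM + 1), filtered or not. With 1 library left out, WNT10B ranged from -0.0792 to 0.211, NOTUM from -0.527 to 0.107, ZNRF3 from -0.0461 to 0.0668, and TCF7L2 from -0.173 to 0.120.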

Other observations

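Of the tested members, 5 lie on chromosome 17: AXIN2, FZD2, NOTUM, RNF43 and WNT3. Their median log2 fold change was -0.08, and 0.05 with GC correction, while the 944 tested genes of that chromosome had a median of 0.15, and 0.23 with GC correction. WNT3 was the only member of these with an unadjusted p under 0.05 by edgeR.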
